A study of Homo sapiens with 6 samples.

Results

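The genes of the ISG15 conjugation system were examined in NB4, an established human cell line of acute promyelocytic leukemia that carries the PML/RARα fusion. They are 8 genes, listed by symbol for their part in attaching or removing ISG15, among the 23368 symbols of the deposited count files, and all 8 were found and had enough counts to be tested. NB4 cells were left without treatment (not treated, n.t.) or treated for 24 h with 10 µM maltonis, a synthetic hydroxypyrone derived from maltol, and total RNA was sequenced from 3 biological replicates per group. Both groups are the same unmodified cell line, at a single dose and time, so the comparison asks what maltonis does to these transcripts in this line alone. The cells were checked against markers written for promyelocytes and for other cell types: 8 of 9 promyelocyte markers were above 10 CPM without treatment (the exception was ELANE). Of the markers of other cell types, CD3D of T cells and EPCAM and KRT18 of epithelial cells were also above 10 CPM without treatment, and the 4 erythroid markers were at 3 counts or fewer in every library.

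ISG15 is a small protein with ubiquitin-like folds that cells make in response to interferon and attach to other proteins, a modification named ISGylation. The attachment runs through a relay: UBA7 is the activating enzyme (E1), UBE2L6 the conjugating enzyme (E2), and HERC5 the main ligase (E3) in human cells. HERC6 is the neighbour and close relative of HERC5, ARIH1 and TRIM25 are further ligases reported to pass on ISG15, and USP18 is the protease that takes ISG15 off again and also restrains signalling at the type I interferon receptor. TRIM25 is better known for its part in the RIG-I pathway of viral RNA sensing, and ARIH1 for its work with cullin-RING ubiquitin ligases. Most of these genes are known to be induced by interferon through ISGF3, which binds a DNA element called the interferon-stimulated response element (ISRE).

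In GENCODE (GRCh38), ISG15 lies at chr1:1001138-1014540, UBA7 at chr3:49805207-49813946 and UBE2L6 at chr11:57551656-57568284. HERC6 at chr4:88378739-88443111 and HERC5 at chr4:88457117-88506163 are neighbours on the same strand. USP18 lies at chr22:18149899-18177397, TRIM25 at chr17:56836387-56914080 and ARIH1 at chr15:72474326-72602985.

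Promoter sequences are shown first, since 7 of the 8 genes rose together. RefSeq promoters (GRCh38.p14) were found for 6 of the 8 genes, in 7 windows because UBE2L6 has a pair of starts, and none was found for UBA7 and USP18. Each window holds the 250 bases before a RefSeq transcription start, which can differ from the GENCODE boundary given above. The windows of ISG15 and UBE2L6 lie inside their GENCODE genes, and that of HERC6 lies partly inside. Bases before the GENCODE starts of ISG15 and UBE2L6 were not searched, and those of HERC6 only in part. The ISRE was searched on both strands as GAAA, any 2 bases, then GAAA, and overlapping matches were counted. The windows of ISG15, HERC5, HERC6 and ARIH1 are shown 5′ to 3′ along the strand of the gene, with every base of an ISRE match in capitals. ISG15 and HERC5 are the genes with a match, HERC6 had the largest change, and ARIH1 was the gene that did not pass the test.
ISG15, chr1:1013247-1013496, plus strand: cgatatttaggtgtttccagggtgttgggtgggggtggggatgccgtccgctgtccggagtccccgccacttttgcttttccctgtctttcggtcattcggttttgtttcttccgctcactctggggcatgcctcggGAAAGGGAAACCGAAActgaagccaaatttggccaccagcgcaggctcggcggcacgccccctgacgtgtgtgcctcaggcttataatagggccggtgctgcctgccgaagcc
HERC5, chr4:88456869-88457118, plus strand: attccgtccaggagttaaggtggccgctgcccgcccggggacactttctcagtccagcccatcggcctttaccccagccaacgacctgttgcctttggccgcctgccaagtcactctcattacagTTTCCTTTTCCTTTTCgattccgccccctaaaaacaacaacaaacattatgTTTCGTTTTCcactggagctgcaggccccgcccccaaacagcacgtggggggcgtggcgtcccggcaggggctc
HERC6, chr4:88378602-88378851, plus strand: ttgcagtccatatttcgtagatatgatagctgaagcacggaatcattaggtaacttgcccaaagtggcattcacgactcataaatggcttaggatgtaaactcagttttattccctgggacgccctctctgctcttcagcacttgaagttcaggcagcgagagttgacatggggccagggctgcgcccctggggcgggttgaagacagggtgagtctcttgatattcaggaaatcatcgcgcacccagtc
ARIH1, chr15:72474080-72474329, plus strand: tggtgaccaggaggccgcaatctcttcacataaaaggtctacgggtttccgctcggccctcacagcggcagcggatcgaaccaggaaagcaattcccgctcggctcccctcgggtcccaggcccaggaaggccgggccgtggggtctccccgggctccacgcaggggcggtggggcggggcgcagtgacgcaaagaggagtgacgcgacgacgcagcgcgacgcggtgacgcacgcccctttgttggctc

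The ISG15 window had 2 overlapping matches, which begin 113 and 107 bases before the start. The HERC5 window had 3, all on the opposite strand, of which the first begins 125, the next 119 and the last 74 bases before the start. No window of HERC6, UBE2L6, TRIM25 or ARIH1 held these letters. Over all 35116 promoter windows of this length, 3.02% had at least 1 match, and the share was 2.51% of 13322 windows of tested genes. A second pattern, named GAS, was searched as TTC, any 3 bases, then GAA. It matched none of the 7 windows, against 5.57% of the windows of tested genes. A match describes the sequence, and its binding by any factor was not measured here.

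The 6 libraries held between 18492154 and 38205483 counts, so that 3 counts correspond to between 0.0828 and 0.160 CPM (counts scaled to the library size, with TMM factors). All 8 genes lay far above this floor in every library, with the lowest value, 78 counts, for HERC6 in not treated replicate 1. Replicate libraries differed by more than sampling noise and each was used as its own sample. In bulk RNA, fewer cells of a kind and less RNA per cell cannot be told apart. The names of the deposited files carry one code for replicate 1 and another for replicates 2 and 3, with no stated meaning, and values for both subsets are given with the results.

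After maltonis, 7 of the 8 genes were higher at a false discovery rate (FDR) under 0.01, and none was lower. Of all 13209 genes tested, 31.9% rose and 32.1% fell at this threshold, or 64% in either direction. Each of these 7 genes also had all 3 maltonis libraries above all 3 not treated ones, a pattern that 38.8% of all tested genes had, while groups that did not overlap in either direction made up 76.6%. With the additional criterion of a rise above 2.5-fold, 5 of the 8 genes were called, against 9.96% of all tested genes. The study also asked for a treated level above 10 RPKM (CPM per length), which per summed exon length left 2 genes, ISG15 and HERC5, against 1.63% of the 12637 tested genes with a length. Per coding length 4 genes were left, with no share of all genes computed, and the study’s own gene lengths were not used. The median log2 fold change of the 8 genes was 1.47, and that of all genes tested was 0.01. HERC6 had the largest change, followed by HERC5 and ISG15, then USP18 and UBA7, then TRIM25 and UBE2L6, and ARIH1 had the smallest. Within each of these 3 pairs, leaving out 1 not treated library could turn the order. ISG15 passed HERC5 (2.40 against 2.33) and UBE2L6 passed TRIM25 (0.94 against 0.89) without not treated replicate 1. UBA7 passed USP18 (1.41 against 1.39) without not treated replicate 3. ISG15 also passed HERC5 without maltonis replicate 2 (2.31 against 2.29) or maltonis replicate 3 (2.32 against 2.28).

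**Figure D1:**
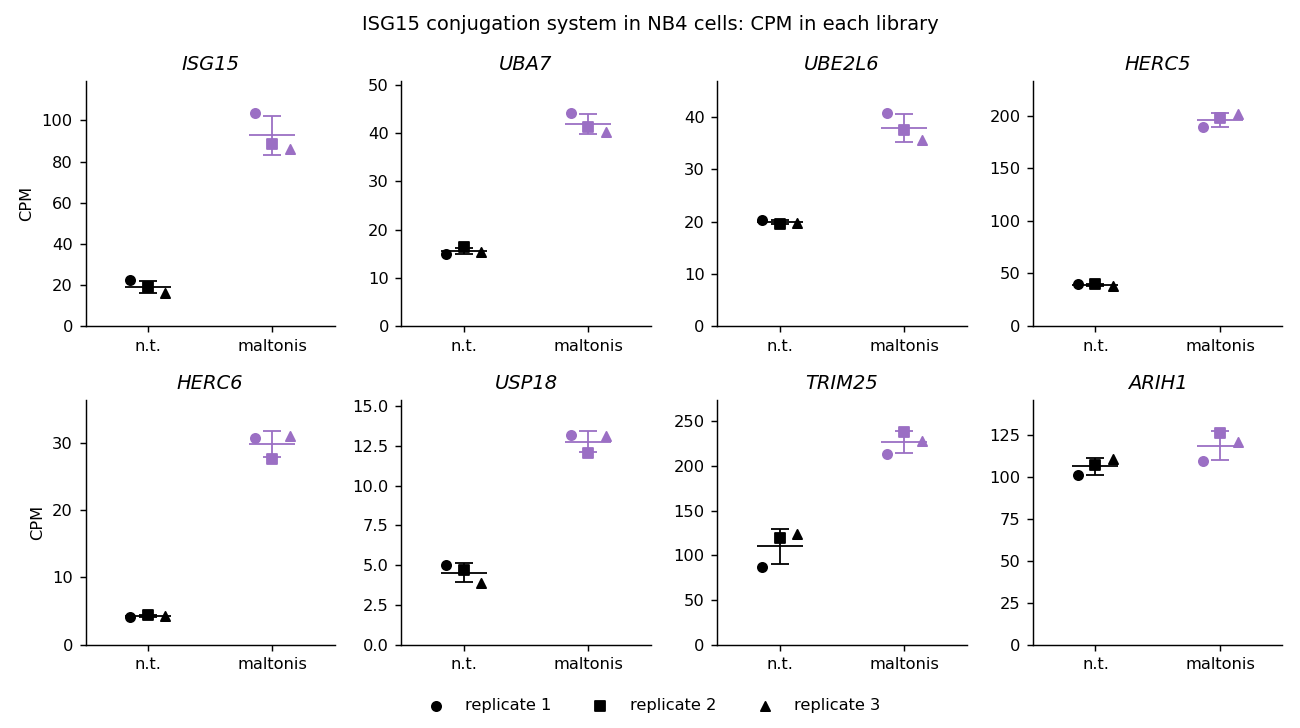
CPM (counts scaled to library size with TMM factors, linear axes from 0) of each gene in the 3 not treated (n.t., black) and 3 maltonis-treated (lilac) libraries, with the mean and SD as bars. In every panel but that of ARIH1 the lowest maltonis library lies above the highest not treated one.

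The modifier itself, ISG15, stood at 22.2, 18.7 and 16.0 CPM in not treated replicates 1, 2 and 3 and at 104, 88.6 and 86.3 CPM in the maltonis-treated ones. The lowest treated library was 3.89 times the highest not treated one, and replicate 1 was the highest library of both groups. The mean rose from 19.0 ± 3.11 to 92.8 ± 9.43 CPM (SD, n = 3), which is 4.91-fold. The log2 fold change was 2.30 (standard error 0.126, 95% interval 2.01 to 2.59), with an adjusted p-value of 6.69e-07 from edgeR’s quasi-likelihood test. It was 2.22 in replicate 1 and 2.33 in replicates 2 and 3.

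UBA7, which activates ISG15 and begins the relay, had 15.0, 16.3 and 15.3 CPM without treatment and 44.2, 41.3 and 40.1 CPM with maltonis. The replicates of each group were close, and the groups were well apart. The mean went from 15.5 ± 0.665 to 41.8 ± 2.08 CPM (SD, n = 3). On the log2 scale the change was 1.43 (standard error 0.0743, 95% interval 1.26 to 1.60, adjusted p = 5.03e-07, edgeR).

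UBE2L6, which takes ISG15 over from UBA7, was measured at 20.3, 19.6 and 19.7 CPM in not treated and at 40.8, 37.5 and 35.6 CPM in maltonis-treated cells. All 3 treated libraries lay above the not treated ones, by 1.75 times or more. The rise was 1.91-fold, from 19.9 ± 0.408 to 38.0 ± 2.64 CPM (SD, n = 3). With a log2 fold change of 0.93 (standard error 0.0756, 95% interval 0.76 to 1.11, adjusted p = 6.51e-06, edgeR), UBE2L6 was below the criterion of 2.5-fold, and its interval overlapped that of TRIM25.

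HERC5, the main ISG15 ligase, had the highest CPM of the genes that rose more than 4-fold. The not treated libraries held 40.1, 39.7 and 38.0 CPM of it, and the maltonis-treated ones 189, 198 and 202 CPM. The spread within a group was small beside the gap between the groups, the lowest treated library being 4.72 times the highest not treated one. The mean rose from 39.2 ± 1.09 to 196 ± 6.51 CPM (SD, n = 3), with a log2 fold change of 2.32 (standard error 0.0593, 95% interval 2.19 to 2.46, adjusted p = 2.46e-08, edgeR).

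HERC6, which lies next to HERC5 on chromosome 4 and has the same domain layout, is the main ISG15 ligase of the mouse, while its part in human ISGylation is less clear. Its values were 4.15, 4.33 and 4.28 CPM in not treated and 30.7, 27.6 and 31.1 CPM in maltonis-treated replicates 1, 2 and 3. It was the least abundant of the 8 genes per length without treatment and rose the most, 6.97-fold, from 4.26 ± 0.0920 to 29.8 ± 1.93 CPM (SD, n = 3). The log2 fold change was 2.80 (standard error 0.0905, 95% interval 2.59 to 3.01, adjusted p = 5.30e-08, edgeR), above 97.7% of the genes tested. The intervals of HERC5 and HERC6 did not overlap.

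USP18, the protease that removes ISG15, had 5.01, 4.69 and 3.86 CPM without treatment and 13.2, 12.1 and 13.1 CPM with maltonis. Every treated library was at least 2.41 times the highest not treated one. The mean rose 2.85-fold, from 4.52 ± 0.592 to 12.8 ± 0.636 CPM (SD, n = 3), or by 1.51 on the log2 scale (standard error 0.118, 95% interval 1.24 to 1.78, adjusted p = 5.35e-06, edgeR). USP41, a near-identical copy of USP18, was not among the symbols of the count files, and reads that match both genes leave the values of USP18 uncertain.

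TRIM25 was among the more abundant genes, at 86.8, 119 and 123 CPM in not treated and 214, 238 and 228 CPM in maltonis-treated cells. Replicate 1 was the lowest library of both groups, and the not treated library of replicate 1 stood apart from the other two. The mean went from 110 ± 20.1 to 227 ± 12.2 CPM (SD, n = 3), or by 1.04 on the log2 scale (standard error 0.124, adjusted p = 7.19e-05, edgeR). It was 1.30 in replicate 1 and 0.94 in replicates 2 and 3, the widest gap between these subsets among the 8 genes. C17orf67 and MIR3614, which overlap exons of TRIM25 on the same strand, had a mean of at most 0.907 and 0 CPM in either group. DGKE, which overlaps 80 exon bases on the other strand, fell by 0.65 on the log2 scale (adjusted p = 0.000286, edgeR).

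ARIH1, a ubiquitin ligase of the RING-between-RING class that many cells express constitutively, did not pass the test. It had 101, 107 and 111 CPM in the not treated libraries against 109, 126 and 121 CPM in the maltonis-treated ones, and the groups overlapped, since treated replicate 1 was below not treated replicate 3. The means were 106 ± 5.06 and 119 ± 8.48 CPM (SD, n = 3). The log2 fold change was 0.16 (standard error 0.0708, 95% interval −0.0033 to 0.32, adjusted p = 0.0705, edgeR), so that a 2.5-fold rise lies outside the interval. ARIH1 is the gene whose call depended on the scaling: with total counts as the only scaling, which moved all genes by a median of 0.12, its log2 fold change was 0.28 (adjusted p = 0.00565, edgeR).

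**Figure D2:**
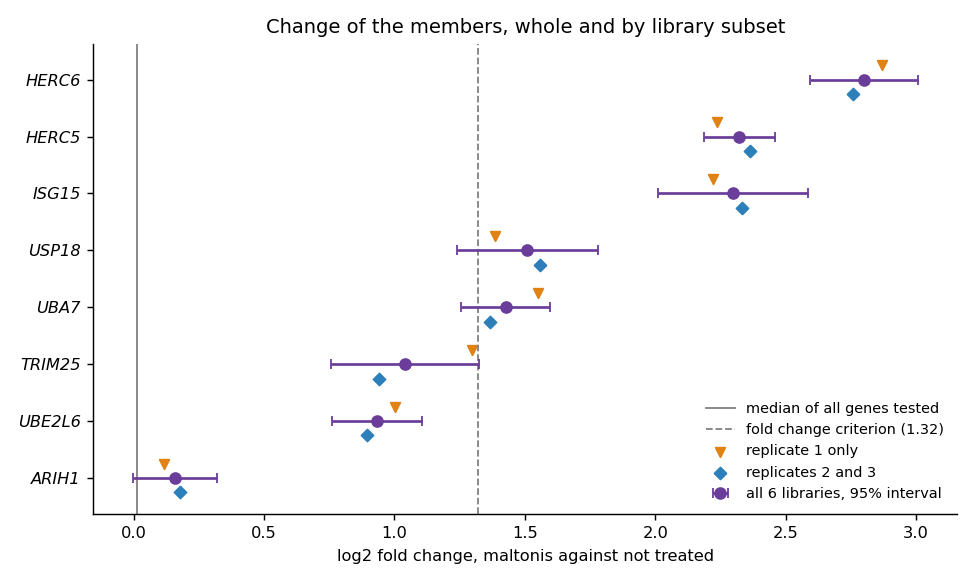
Log2 fold change of each gene (x axis, maltonis against not treated) from all 6 libraries with its 95% interval (circles), from replicate 1 alone (triangles) and from replicates 2 and 3 (diamonds). The solid line is the median of all genes tested, 0.01, and the dashed line the 2.5-fold criterion. HERC6 is highest at 2.80, and the subsets differ most for TRIM25, 1.30 and 0.94.

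Levels of different genes were compared as RPKM, which divides CPM by the gene length, here the summed length of all annotated exons. Without treatment ISG15 was the highest, at 20.2 RPKM, followed by TRIM25 (11.6 RPKM), UBE2L6 (9.05 RPKM), HERC5 (8.23 RPKM), ARIH1 (4.65 RPKM), UBA7 (3.42 RPKM), USP18 (2.12 RPKM) and HERC6 (0.735 RPKM). Neighbours in this order were separate in all libraries except TRIM25 and UBE2L6, whose ranges overlapped. With maltonis ISG15 was still the highest, at 98.7 RPKM, and HERC5 had moved to the second place with 41.2 RPKM. TRIM25, UBE2L6, UBA7 and USP18 followed with 23.8, 17.3, 9.21 and 6.0 RPKM. ARIH1 and HERC6 stood last with 5.19 and 5.14 RPKM, and their ranges overlapped.

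The RPKM order depends on the length used, above all for ARIH1, whose annotated exons sum to 22880 bases while its coding sequence has 1770. The same whole-gene counts were divided by either length. Reads outside the coding sequence therefore stay in the values per coding length and can raise them. Per coding length, ARIH1 was the highest of the 8 genes without treatment (60.1 RPKM), with a range that overlapped that of TRIM25 (56.6 RPKM). With maltonis ISG15 was the highest (188 RPKM per coding length) and TRIM25 came next (117 RPKM per coding length). UBA7, USP18 and HERC6 had the lowest levels, in that order, per coding length in both groups. Among the 12637 tested genes with a known exon length, ISG15 ranked between 2378 and 3214 in the not treated libraries and between 309 and 402 in the maltonis-treated ones. HERC5 moved from ranks between 5444 and 5611 to ranks between 1107 and 1174. ARIH1 held ranks between 7046 and 7248 without treatment and between 6550 and 6936 with it.

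**Figure D3:**
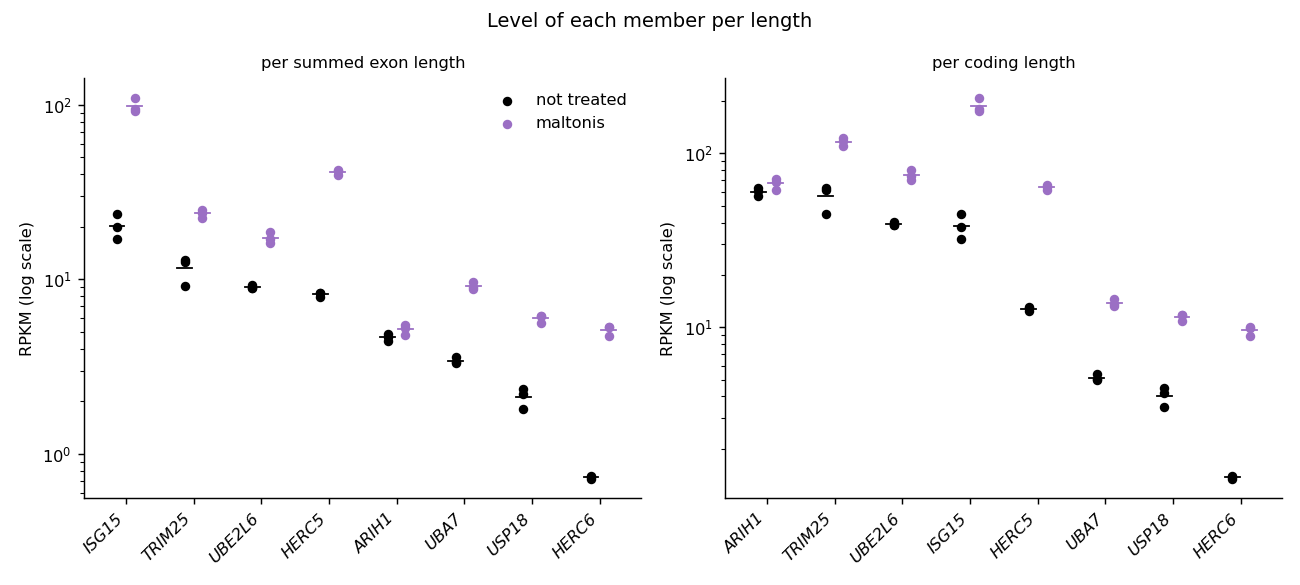
RPKM of each gene on a log axis in not treated (black) and maltonis-treated (lilac) libraries, per summed exon length (left) and per coding length (right), with lines at the means and genes ordered by their not treated mean. ISG15 is the highest treated gene in both panels, while ARIH1 is in the middle of the not treated order on the left and at its top on the right.

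The balance of the genes was followed as ratios of counts within a library, which no scaling can change. There were 3.98 to 4.40 ISG15 counts per USP18 count without treatment and 6.56 to 7.84 with maltonis, a difference of 0.80 on the log2 scale. The ratio of UBE2L6 to UBE2L3, its closest relative among the E2 enzymes and an enzyme of ubiquitin, went from between 0.193 and 0.216 to between 0.484 and 0.531. UBA7 made 0.0346 to 0.0360 counts per count of UBA1, the ubiquitin E1, in not treated and 0.0982 to 0.105 in maltonis-treated cells. HERC5 counts per HERC6 count lay between 8.82 and 9.53 without treatment and between 6.14 and 7.17 with it. The ratio of ARIH1 to ARIH2, a related ligase, was 0.995 to 1.09 without treatment and 1.27 to 1.35 with maltonis. TRIM25 counts per ISG15 count were 3.90 to 7.70 and 2.06 to 2.69. In each of these 6 pairs the groups did not overlap, which was also so for 76.6% of single genes in CPM, and other pairs were not computed. The two-sided exact permutation test gave p = 0.1 for each pair (adjusted over the 6 pairs, 0.1), the smallest value that 3 libraries against 3 allow, so that no pair could pass 0.05.

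**Figure D4:**
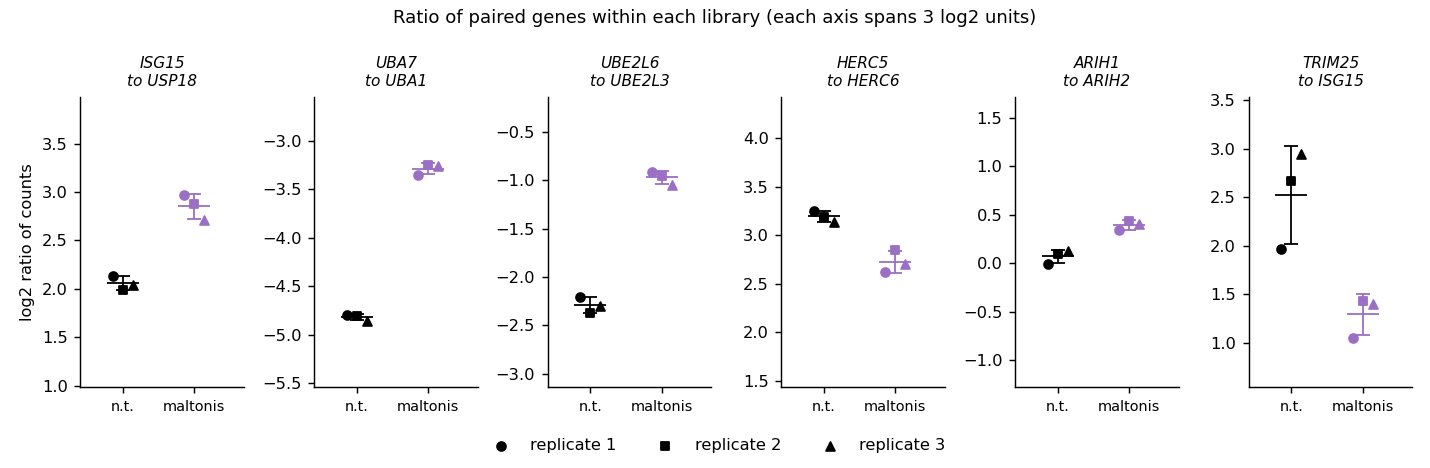
Log2 ratio of the counts of paired genes within each library, for not treated (n.t., black) and maltonis-treated (lilac) cells, with mean and SD as bars and axes that all span the same 3 log2 units. The first 3 pairs and ARIH1 to ARIH2 are higher with maltonis, and HERC5 to HERC6 and TRIM25 to ISG15 are lower.

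Lists of related genes were set beside the conjugation system, with no test between lists. Over all genes tested, 31.9% were higher and 32.1% lower at an FDR under 0.01, with a median log2 fold change of 0.01. Among 9 E1 enzymes and subunits of other modifiers, none was higher and 5 were lower at an FDR under 0.01, with a median log2 fold change of −0.36. The lower ones included UBA3 and NAE1, which together activate NEDD8 (−0.90 and −0.82), and UBA2 of the SUMO pathway (−0.39), while UBA1 had −0.11 (adjusted p = 0.229, edgeR). Of 33 other E2 enzymes, 4 were higher and 15 lower, with a median of −0.26. The largest changes were those of UBE2D4 (−3.23), UBE2O (−1.63), UBE2C, an E2 of the anaphase-promoting complex (1.41), and UBE2D1 (−1.37), and UBE2L3 fell by 0.39 on the log2 scale (adjusted p = 0.000297, edgeR).

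Of 13 ubiquitin genes and ubiquitin-like modifiers, 12 were tested, and 3 were higher and 4 lower, with a median of −0.17. SUMO3 (−1.34) and NEDD8 (−0.66) fell and ATG12, a modifier of autophagy, rose (0.70). FAT10 (UBD), another modifier that cytokines induce, had 0 counts in all 6 libraries. Scaling by total counts in place of TMM reversed none of the calls in these lists, but changed, among others, the number of lower E2 enzymes to 10 and that of higher E1 enzymes to 2. Over all 13209 genes tested, it changed the number of higher genes from 4213 to 4902 and that of lower genes from 4239 to 3652.

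Among the other members of the HERC family, HERC2 (0.46) and HERC4 (0.54) rose, and HERC1 (0.17, adjusted p = 0.0380) and HERC3 (−0.25, adjusted p = 0.149, edgeR) did not pass the test. HERC1 passed it with total counts as the scaling (0.29, adjusted p = 0.00325, edgeR). Of 13 other RING-between-RING ligases, 11 were tested, with 6 higher, 2 lower and a median of 0.52. PARK2 among them passed the filter on low counts through its maltonis libraries alone, and without it 5 of 10 were higher, with a median of 0.39. The shares over all genes tested were not recomputed without genes of this kind. RNF31, the catalytic subunit of the linear ubiquitin ligase complex (1.26), and RNF14 (0.92) rose, RNF144A fell by 1.14 on the log2 scale, and ARIH2 had −0.17 (adjusted p = 0.0239, edgeR). PARK2, the Parkin gene, passed the test but had at most 3 counts in any not treated library, at 0, 0.0828 and 0.0603 CPM against 0.568, 0.447 and 0.603 CPM with maltonis. Among 11 TRIM genes known to be induced by interferon, 10 were tested and 8 were higher, 1 lower (TRIM14, −0.37), with a median of 1.17. TRIM34 and TRIM6 passed the filter through their maltonis libraries alone, and without them 6 of 8 were higher, with a median of 0.86. TRIM22, an antiviral ligase, had the largest change (2.08), followed by TRIM34 (1.96), TRIM6 (1.93) and TRIM56 (1.27). TRIM34 and TRIM6 had at most 7 and 9 counts in a not treated library, and transcripts that join both genes leave their values uncertain. With total counts as the scaling, TRIM14 was no longer past the threshold (−0.25, adjusted p = 0.0461, edgeR).

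Some deubiquitinases other than USP18 have been reported to react with ISG15. Of the 6 tested, USP5 was higher (0.63) and USP13 lower (−2.29), and 4 were not past the threshold. Their log2 fold changes were −0.24 for USP2, −0.29 for USP14, −0.17 for USP16 and 0.02 for USP21. Of the 18 genes listed for proteins that are known to be ISGylated, 11 were higher and 3 lower, with a median of 0.68. MX1, an antiviral effector, had only 5 to 13 counts in the not treated libraries and 85 to 167 with maltonis, and passed the filter through the latter alone. Without it 10 of 17 were higher, with a median of 0.53. Large increases were also those of IFIT1 (3.86), another antiviral effector, and DDX58 (2.21) and IFIH1 (1.68), the sensors of viral RNA known as RIG-I and MDA5. These 4 genes are themselves interferon-stimulated. The lower ones included UBE2N (−0.57) and JAK1 (−0.37).

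Around the receptor that USP18 restrains, 5 of 8 genes were higher and 2 lower. IRF9 (2.90) and STAT2 (1.80), which belong to ISGF3, rose, as did TYK2 (1.02) and IFNAR1 (0.66). JAK1 (−0.37) and SKP2, a ubiquitin ligase subunit that targets USP18 (−1.14), fell, and IFNAR2, the receptor chain that USP18 binds, had 0.06 (adjusted p = 0.658, edgeR). Of the subunits of LFA-1, which binds secreted ISG15, ITGB2 fell by 1.48 on the log2 scale (adjusted p = 3.59e-07, edgeR), from 260 ± 17.1 to 93.6 ± 5.54 CPM (SD, n = 3). The other subunit, ITGAL, had −0.15 (adjusted p = 0.311, edgeR).

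**Figure D5:**
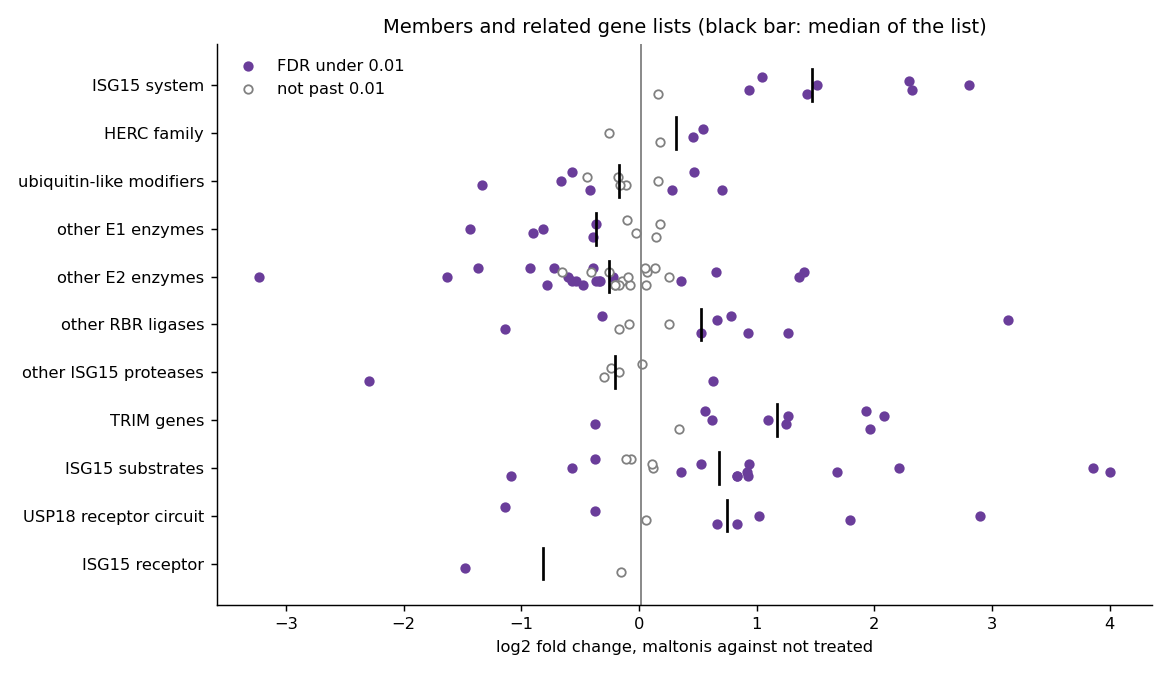
Log2 fold change (x axis, maltonis against not treated) of every tested gene of the ISG15 system and of the related lists, filled where the FDR was under 0.01, with a black bar at the median of each list and a grey line at the median of all genes. The ISG15 system has the highest median, 1.47, and the TRIM genes come next with 1.17, or 0.86 without TRIM34 and TRIM6. The E1 and E2 enzymes of other modifiers have medians of −0.36 and −0.26. The genes and lists were chosen with earlier results of these data known.

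The genes most like ISG15 across the 6 libraries were sought by the Euclidean distance of log2 CPM after each gene’s own mean was removed. The nearest 5 of all tested genes were IFI6, an interferon-induced gene (distance 0.106), LOC100129518 (0.158), TREX1, a DNA exonuclease (0.166), FUT7, a fucosyltransferase (0.201), and ARSA, a lysosomal sulfatase (0.218). Their log2 fold changes lay between 2.13 and 2.43, and the median distance of all genes from ISG15 was 2.85. The nearest genes to USP18 were LOC100289187 (0.138), ARSD (0.144), ZCWPW1 (0.154), FCGR2A, an Fc receptor (0.158), and RAB33B (0.161), against a median distance of 1.92. With only 2 conditions, this measure reflects the size of the change and the spread of 3 replicates.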

How the data were processed

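RNA-seq of not treated and maltonis-treated NB4 cells was analysed, with 3 libraries per group as given by the labels. Stranded total RNA libraries were sequenced, and the submitters’ processing notes name TopHat, Bowtie2, HTSeq and hg19. The values deposited by the authors are raw HTSeq counts of reads per gene symbol, 1 file per library. The gene annotation and the strand setting of HTSeq are not given in the sources used here, so reads of paralogs, overlapping and antisense genes could have been split or shared.

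The test was run with edgeR 4.0.16 in R 4.3.3 (TMM, filterByExpr, quasi-likelihood test, all 6 libraries, no covariates) and Benjamini-Hochberg adjustment over 13209 genes. Standard errors are the log2 fold change divided by the square root of F. The threshold was an FDR under 0.01, and the criterion of 2.5-fold, rounded, is 1 part of the study’s rule, which also asked for more than 10 RPKM in the treated cells. Gene lengths are summed exons of GENCODE version 29 (GRCh38), found for 20194 symbols by name and 1525 by synonym, and not for 1649. The protein table that the coding length was planned from was not used, and the coding length comes from the same annotation, an alternative chosen after seeing the data. GENCODE also gave the overlapping genes. Log2 CPM used a prior count of 2, and ratios of counts a pseudocount of 1. The fit was tested on simulated counts first.

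Named genes are the 8 members, the counterparts UBA1, UBE2L3 and ARIH2, all genes of lists of 8 or fewer, the 4 largest changes past the threshold of longer lists, and the 5 nearest genes to ISG15 and to USP18. Outside this rule, DGKE, C17orf67 and MIR3614 were named for their overlap with TRIM25, TRIM14 as the only lower TRIM gene, UBD for its 0 counts, and UBE2N and JAK1 as lower ISGylated proteins. AGRN, TUBA8, PIGY, TRAIP, PPM1K, COIL, HES4, CDHR4, SMTNL1, SERPING1, TMEM202, GOLGA6B and TMEM191B were also named after their values were seen. So were the cell type markers ELANE, MPO, CTSG, AZU1, CSF3R, CD33, CEBPE, SPI1, PRTN3, CD3D, CD8A, EPCAM, KRT18 and KRT8. A few genes that the rule names are not reported here. The members and lists were chosen with earlier results of these data known. Alternatives covered the scaling, DESeq2 1.42.0, the filter, the replicate block, the file-name code, each library left out, the call rule, the length and the pseudocount. The RPKM criterion and the lists without genes that passed the filter through 1 group alone were added after seeing the data. For these reduced lists, no share or median over all genes was computed without such genes.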

Additional observations from a re-analysis of the deposited data

How the results depend on the processing

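The number of the 8 genes called higher was 7 and that called lower 0 under DESeq2 size factors, upper quartile scaling, DESeq2, no filter, the file-name code as a term, an FDR under 0.05 and each library left out. It was 8 higher with total counts, which put ARIH1 past the threshold with a log2 fold change of 0.28. That scaling called 4902 of all 13209 genes tested higher and 3652 lower, against 4213 and 4239 in the main fit. With the fold criterion, 5 of the 8 were higher, against 9.96% of all genes tested. The study’s RPKM criterion was added after seeing the data. With it, 2 were higher per summed exon length, against 1.63% of tested genes with a length. Per coding length it was 4, for which the share of all genes was not computed. Leaving out each library in turn gave log2 fold changes between 0.89 and 1.12 for TRIM25 and between 2.18 and 2.40 for ISG15. With the replicate block, 7 genes were higher and none lower, as without it. Same-numbered libraries deviated together with correlations of 0.301, 0.085 and 0.161, not every library was nearest to its own number, and the labels name no shared culture, so the numbers were not taken as pairs. Of the 110 tested genes of the related lists, 39 were higher and 32 lower in the main fit. The block gave 41 and 34, and total counts gave 47 and 24. Over all 13209 genes tested, the block called 4602 higher and 4620 lower.

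Per coding length, the not treated means were 38.4 RPKM for ISG15, 5.12 for UBA7, 39.2 for UBE2L6, 12.8 for HERC5, 1.37 for HERC6, 4.05 for USP18, 56.6 for TRIM25 and 60.1 for ARIH1. The maltonis means per coding length were 188 RPKM for ISG15, 13.8 for UBA7, 74.9 for UBE2L6, 63.9 for HERC5, 9.60 for HERC6, 11.5 for USP18, 117 for TRIM25 and 67.1 for ARIH1. All log2 ratios of pairs kept their direction with a pseudocount of 0.5. With 3 libraries per group, intervals cover the spread between these libraries only.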

Other observations

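The protein-coding genes next to the members were looked at after the values were known. HERC6 and HERC5 lie side by side, and the next genes on either side are PPM1K, which rose (log2 fold change 0.55, adjusted p = 0.000104, edgeR), and PIGY, which fell by 1.44 on the log2 scale (adjusted p = 2.82e-07, edgeR). Next to ISG15, AGRN, which encodes the matrix protein agrin, had −0.54 (adjusted p = 0.00565, edgeR). TUBA8, a tubulin gene beside USP18, fell by 2.09 on the log2 scale. TRAIP beside UBA7 rose (0.53), and COIL beside TRIM25 fell by 0.40 on the log2 scale. HES4, CDHR4, SMTNL1, SERPING1, TMEM202, GOLGA6B and TMEM191B, the other neighbours, had too few counts to be tested.

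The markers of the cell line moved with the treatment as well. The summed CPM of the 9 promyelocyte markers was 13950 to 16416 in not treated and 8724 to 9213 in maltonis-treated libraries, most of it MPO, which had 12892, 15528 and 15417 CPM without treatment and 7424, 7298 and 7553 CPM with it. The direction differed between the promyelocyte markers. CEBPE (log2 fold change −0.95), SPI1 (−0.62) and CD33 (−0.51) fell, as did MPO (−0.98). AZU1 (0.48) and CSF3R (0.37) rose, and PRTN3 (0.50, adjusted p = 0.0211, edgeR) did not pass the test. CTSG rose 5.06-fold. ELANE was at 0.0603 to 0.166 CPM without treatment and 14.5 to 21.0 CPM with maltonis. Markers of T cells summed to 49.5 to 52.3 CPM without treatment and 17.99 to 18.7 CPM with it, most of it CD3D, at 42.9 to 44.8 and 14.9 to 15.8 CPM, with CD8A at 6.09 to 6.71 and 2.57 to 3.77 CPM. The 4 epithelial markers summed to 38.6 to 39.6 and 29.3 to 31.5 CPM, with EPCAM at 16.0 to 17.6 CPM in not treated libraries, the fibroblast markers to at most 0.878 CPM and those of B cells to at most 3.25 CPM. Of the 3 epithelial markers tested, KRT8 rose by 0.87 on the log2 scale, while EPCAM (−0.60) and KRT18 (−0.44) fell. The part of these markers in the results was not tested.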
